A study of Mus musculus with 10 samples.

Results

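Aminoacyl-tRNA synthetases are described here in mouse molars cultured with insulin-like growth factor 1 (IGF1) or with vehicle. The members were chosen by name: each protein coding gene of the GENCODE M21 annotation whose symbol is that of a synthetase, in the pattern of Aars, Cars or Aars2, together with Eprs, Ears2, Pars2, Farsa and Farsb. The rule found 37 genes among the 18381 in the table, of which 20 encode cytosolic and 17, with a symbol ending in 2, encode mitochondrial enzymes. All 37 passed the filter on low counts. The rule itself uses names and no measured value, although it was set with earlier results of these data known.

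Each synthetase joins an amino acid to its matching transfer RNA, the step that sets the genetic code and feeds the ribosome. The cytosol and the mitochondria translate with separate tRNA pools, and for most amino acids the mitochondrial enzyme has its own nuclear gene. Gars and Kars are exceptions, since each gene encodes the enzyme of both compartments, and mitochondria make glutaminyl-tRNA by amidation rather than with an enzyme of their own. Several cytosolic synthetase genes are known targets of ATF4, a transcription factor of the amino acid and integrated stress responses, and IGF1 signals through mTORC1, which is known to raise ATF4.

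The molars were first lower molars of wild type C57BL/6JOlaHsd embryos at embryonic day 14, held in hanging drops for 6 h. The medium held mouse recombinant IGF1 at 750 ng/ml, dissolved in 1x PBS with 0.1% BSA, or an equal volume of that solvent alone. Embryos 1, 2, 3, 4 and 6 each gave 1 tooth to either treatment, with left and right sides balanced, so that 5 IGF1 teeth were compared with 5 control teeth within embryos. A tooth was extracted and sequenced by itself, and no uncultured tooth was among the samples, so what culture itself did was not analysed here.

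Total estimated counts ran from 2845773 to 8403151 in the control and from 3456634 to 8763113 in the IGF1 teeth, with both teeth of embryo 1 the shallowest of their groups. Markers of both tooth tissues were present: the summed level of 14 epithelial markers was 2394 to 3625 CPM (counts scaled to a common library total) in control and 2693 to 3700 in IGF1 teeth, and that of 12 mesenchymal markers 7405 to 9216 and 6598 to 8725. With IGF1, 1 of the 14 epithelial markers was called higher (adjusted p under 0.05 in edgeR's quasi-likelihood test), the basal keratin Krt5 (log2 fold change 0.43), and 8 of the 14 estimates were above 0, where 6.14% of all genes were called higher and 4.16% lower. Of the 12 mesenchymal markers 2 were called lower, Pdgfra (-0.53) and Vim (-0.42), and 2 of the 12 estimates were above 0. Of 6 erythroid markers tested 4 were called lower, the globins Hbb-y, Hba-a1, Hbb-bs and Hbb-bt, while the globin Hba-a2 was at -0.39 and did not pass (adjusted p = 0.0575), and their summed level was 848 to 1419 CPM in control and 604 to 1104 in IGF1 teeth. Of 8 endothelial markers 1 (Cdh5) and of 8 macrophage markers 1 (Csf1r) was called lower, 1 of 5 glial and neuronal markers tested (Tubb3) was called higher, 0 of 5 of muscle and cartilage were called, and no marker of the 7 cell type lists was at 0 in every tooth. In whole teeth, fewer cells of a type and less RNA per cell cannot be told apart, and the part of cell makeup in the values below was not tested.

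The promoters printed first are shown because they belong to the 5 cytosolic synthetases that were both called higher with IGF1 and held a match to TGATGNAA, the C/EBP-ATF response element through which ATF4 is known to act. The sequences are those of RefSeq on GRCm38.p6, read along the gene's strand, and the capitals mark the match in either orientation.
Aars, chr8:111033680-111033871, plus strand: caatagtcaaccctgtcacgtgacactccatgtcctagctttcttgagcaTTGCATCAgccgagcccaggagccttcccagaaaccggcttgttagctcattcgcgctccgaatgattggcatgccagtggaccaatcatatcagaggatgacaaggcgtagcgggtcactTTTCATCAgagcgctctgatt
Gars, chr6:55037921-55038028, plus strand: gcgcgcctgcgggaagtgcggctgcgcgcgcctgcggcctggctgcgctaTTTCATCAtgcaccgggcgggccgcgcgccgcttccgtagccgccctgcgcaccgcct
Iars, chr13:49682087-49682159, plus strand: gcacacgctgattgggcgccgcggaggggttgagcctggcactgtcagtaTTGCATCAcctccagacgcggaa
Tars, chr15:11399629-11399723, minus strand: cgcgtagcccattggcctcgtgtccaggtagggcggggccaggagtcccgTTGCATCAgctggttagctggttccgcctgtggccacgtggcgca
Yars, chr4:129189856-129189932, plus strand: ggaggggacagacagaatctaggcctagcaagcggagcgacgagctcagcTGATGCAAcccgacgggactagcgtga

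Matches lay close to the start site that RefSeq gives. Aars held 2, starting 112 bases before and 9 bases after that site, both on the opposite strand. In Gars the match began 30 bases before, in Tars 15 bases before, in Iars 7 bases after and in Yars 3 bases after the start. The spelling was TGATGCAA in Iars, Tars, Yars and the first match of Aars, and TGATGAAA in Gars and the second match of Aars.

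A promoter of 300 bases (250 before and 50 after the start) could be searched on both strands for 27 members, 13 cytosolic and 14 mitochondrial. The element was in 5 of the 13 cytosolic promoters and in 0 of the 14 mitochondrial ones, while 4.51% of all 27025 genes with a promoter of that length held it (3.97% of 32851 promoters). Of the 7 cytosolic members called higher that were searched, 5 held it, the exceptions being Mars and Eprs, and of the 6 not called, 0 did. The E-box CACGTG, no match of which overlapped a match of the other motif in these promoters, was in 4 cytosolic promoters (Aars, Farsb, Iars and Tars) and 1 mitochondrial promoter (Ears2), against 8.09% of all genes (7.15% of promoters). A match is a description of letters only, and no match says nothing of a factor bound elsewhere.

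Cytosolic synthetases were mostly the more abundant transcripts. Levels were compared between genes as CPM per kb of merged exons, taken as the median of the 10 teeth. Merged exons are those of all annotated transcripts of a gene, so the order depends on the annotation as well as on the counts. Eprs, with 18102 bases of merged exons, had a median of 269 CPM and read 14.9 CPM per kb. The median cytosolic member stood at 18.2 and the median mitochondrial member at 4.65 CPM per kb. Among cytosolic members the lowest was Cars, the cysteinyl enzyme, at 7.28, and the highest were Gars, the glycyl enzyme, at 28.1 and Iars, the isoleucyl enzyme, at 27.2. Mars2 was the lowest of all members at 2.34, and Hars2, at 9.83, was the second highest mitochondrial member. Neighbours in this order overlapped across the teeth, as the plot of levels by gene shows.

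**Figure D1:**
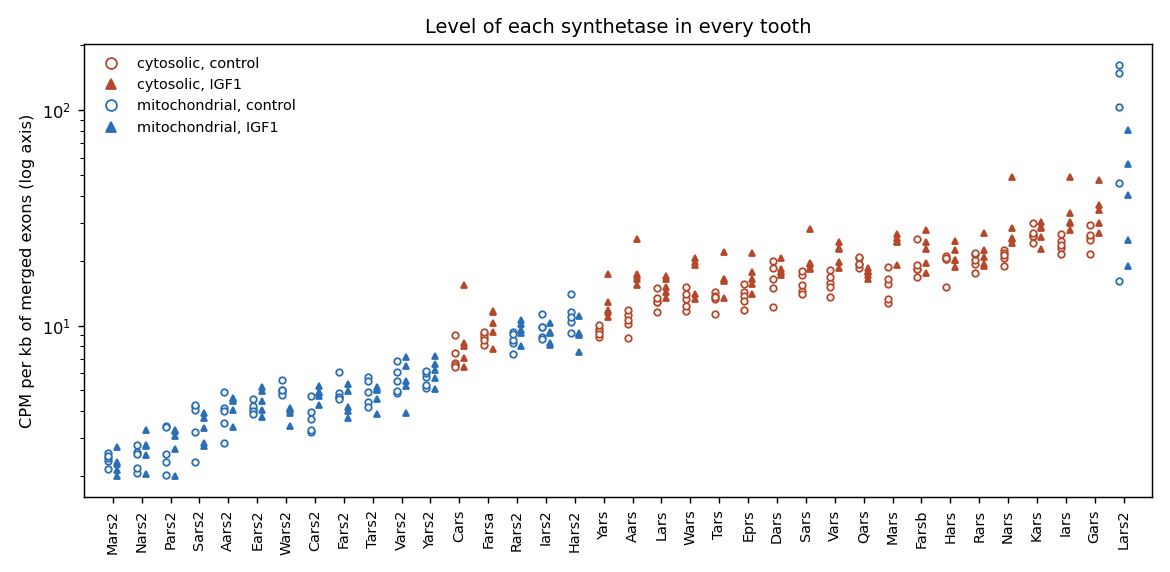
Level of 36 synthetases in every tooth, in CPM per kb of merged exons on a log axis, with genes ordered by their median, cytosolic members in red, mitochondrial members in blue, control teeth as open circles and IGF1 teeth as triangles. Cytosolic members sit mostly to the right of mitochondrial ones (medians 18.2 and 4.65), except for Lars2, which is highest at 50.9 and spreads widely among control teeth.

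Lars2, the mitochondrial leucyl enzyme, stood apart at a median of 50.9 CPM per kb. Its control teeth read 1644, 1151, 1801, 509 and 179 CPM in embryos 1, 2, 3, 4 and 6, and its IGF1 teeth 620, 893, 277, 447 and 210 CPM. The highest control tooth was thus about 10 times the lowest, where in the other 36 members this ratio ran from 1.12 to 1.83 with a median of 1.32. Whether all of these counts come from Lars2 transcripts was not tested. With IGF1 the estimate was a log2 fold change of -0.87 (SE 0.35, adjusted p = 0.152 by edgeR's quasi-likelihood test), which did not pass, and embryo 6 went the other way. The estimate was -0.44 without embryo 3 and -1.15 without embryo 6. Lars2 enters the summed level of all mitochondrial members (629 to 2262 CPM in control, 672 to 1304 in IGF1 teeth), which was not compared between the groups.

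Did IGF1 move the synthetases as a family? Of the 20 cytosolic members, 8 were called higher and 0 lower at an adjusted p under 0.05 (edgeR's quasi-likelihood test with embryo as a block, Benjamini-Hochberg over 15386 genes). Over all genes tested, 6.14% were called higher and 4.16% lower. At an unadjusted p under 0.05, 13 cytosolic members were higher and 1, Qars, was lower, beside 13.7% and 11.6% of all genes, and both DESeq2 (4.76% of all genes higher, 3.26% lower) and limma-voom (6.69% and 4.68%) called 10 higher and 0 lower. The estimate was above 0 for 19 of the 20 (49.5% of all genes), with a median log2 fold change of 0.33 and a range from -0.17 to 0.79, where the median of all genes was -0.0033. All 5 embryos gave a higher value in the IGF1 tooth for 14 of the 20 (12.6% of all genes), and for 7 every IGF1 tooth lay above every control tooth (4.08% of all genes).

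Summed over the 20 cytosolic genes, control teeth held 1648, 1603, 1651, 1764 and 1761 CPM in embryos 1, 2, 3, 4 and 6, and IGF1 teeth 1920, 2574, 1908, 2066 and 2184 CPM. The 2 groups did not overlap, and the IGF1 tooth of embryo 2 was the highest. The median difference over the 20 genes was 0.22, 0.57, 0.24, 0.25 and 0.29 on the log2 scale in the 5 embryos in that order, a mean of 0.32 ± 0.15 (SD, n = 5). Embryo 2 had the largest difference of the 5 for 11 of the 20 genes. Without embryo 2, 5 cytosolic members were called higher (4.16% of all genes), and without embryo 4 (3.55%) or embryo 6 (3.61%), 4 were. Without the block the count was 5 (3.56% of all genes).

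Of the 17 mitochondrial members, Cars2 was called higher and Wars2 lower, and the other 15 were not called. A single call in each direction among 17 is near the shares over all genes, 6.14% higher and 4.16% lower. At an unadjusted p under 0.05, 1 was higher and 3 were lower, beside 13.7% and 11.6% of all genes. limma-voom made the same calls, and DESeq2 called 0 in either direction. Estimates were above 0 for 7 of the 17, and the median log2 fold change was -0.057. In the 5 embryos the median was -0.16, -0.15, -0.0029, -0.094 and 0.15, so it was above 0 in embryo 6 alone.

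**Figure D2:**
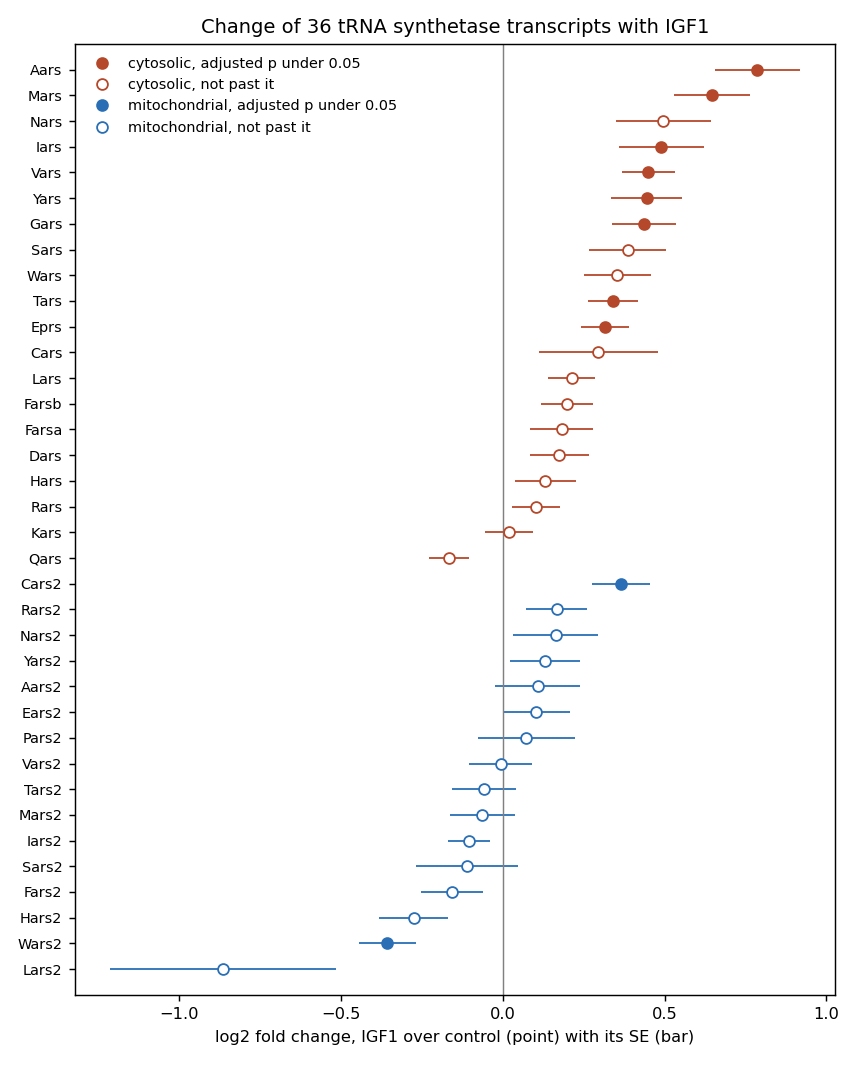
Log2 fold change of IGF1 over control (point) with its standard error (bar) for 36 synthetases, cytosolic above in red and mitochondrial below in blue, with filled points for an adjusted p under 0.05 in edgeR's quasi-likelihood test. Of the cytosolic members 19 of 20 lie right of 0 and 8 are filled, while mitochondrial members lie on both sides and 2 are filled.

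Aars, the alanyl enzyme (chr8:111033144-111057664), gave the largest increase of any member. Its control teeth read 103, 81.7, 94.3, 110 and 98.2 CPM and its IGF1 teeth 153, 233, 144, 161 and 158 CPM in embryos 1, 2, 3, 4 and 6. Every IGF1 tooth lay above every control tooth, and that of embryo 2 stood well above the others. The means were 97.4 ± 10.5 and 170 ± 36.2 CPM (SD, n = 5), a 1.73-fold rise or 0.79 on the log2 scale (SE 0.13, adjusted p = 0.00509). Aars was called in each of the 5 fits that left out an embryo, at log2 fold changes from 0.60 to 0.85.

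Mars, the methionyl enzyme that also charges the initiator tRNA (chr10:127296221-127311786), came next. Control teeth read 53.4, 43.5, 56.2, 64.2 and 45.5 CPM and IGF1 teeth 87.2, 83.4, 65.1, 84.8 and 91.4 CPM. The groups did not overlap, although the IGF1 tooth of embryo 3 lay within 1 CPM of the control tooth of embryo 4. The log2 fold change was 0.65 (SE 0.12, adjusted p = 0.00777), and embryos 2 and 6 gave the largest differences. The last 68 bases of Mars overlap Ddit3 on the other strand, and as strand use in the counting is not given in the sources used here, reads there could be shared; Ddit3, a stress response transcription factor, read 11.0 and 18.6 CPM on average in control and IGF1 teeth (adjusted p = 0.0881).

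Vars, the valyl enzyme (chr17:35000987-35016322), rose in every embryo. Its control teeth held 102, 76.2, 88.6, 94.5 and 84.9 CPM and its IGF1 teeth 129, 111, 104, 128 and 137 CPM. The ranges were apart, and the largest difference was in embryo 6 rather than embryo 2. Its log2 fold change was 0.45 (SE 0.081, adjusted p = 0.00705). Aars, Mars and Vars were the 3 members called in all 5 fits with an embryo left out.

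Iars (chr13:49682100-49734267), the isoleucyl enzyme, and Yars (chr4:129189760-129219607), the tyrosyl enzyme, also showed no overlap between groups. For Iars, control teeth read 121, 113, 130, 140 and 125 CPM and IGF1 teeth 146, 258, 158, 160 and 176 CPM. For Yars, control teeth read 57.2, 52.7, 55.9, 54.3 and 59.8 CPM and IGF1 teeth 64.8, 103, 68.5, 70.4 and 76.6 CPM. In both genes the IGF1 tooth of embryo 2 was far above the other 4. The log2 fold changes were 0.49 (SE 0.13, adjusted p = 0.0415) for Iars and 0.44 (SE 0.11, adjusted p = 0.0291) for Yars. Without embryo 2 Iars was at 0.31 and was still called (adjusted p = 0.0485), but not without embryo 1, 4 or 6, where the adjusted p reached 0.11. The call on Yars was lost without embryo 2, 4 or 6 (adjusted p up to 0.0778).

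Gars (chr6:55038007-55079500), Tars, the threonyl enzyme (chr15:11382301-11399665), and Eprs, the bifunctional glutamyl-prolyl enzyme (chr1:185363044-185428360), rose within every embryo although their groups overlapped. Gars read 66.8, 80.7, 78.2, 91.1 and 81.9 CPM in control and 84.0, 147, 93.8, 107 and 113 CPM in IGF1 teeth (log2 fold change 0.44, SE 0.098, adjusted p = 0.0203). Tars read 66.4, 84.8, 78.3, 80.6 and 80.0 CPM in control and 79.2, 129, 95.0, 96.6 and 97.0 CPM in IGF1 teeth (0.34, SE 0.077, adjusted p = 0.0215). Eprs read 213, 258, 248, 235 and 283 CPM in control and 255, 391, 297, 281 and 322 CPM in IGF1 teeth (0.32, SE 0.074, adjusted p = 0.0237). For all 3, the embryo with the lowest control tooth, embryo 1, also had the lowest IGF1 tooth. Without the block none of the 3 was called (adjusted p 0.0787, 0.118 and 0.134). With an embryo left out, the call was lost for Gars without embryo 6 (adjusted p = 0.0666), for Tars without embryo 2, 4 or 6 (up to 0.0651) and for Eprs without embryo 1, 2 or 4 (up to 0.0708).

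**Figure D3:**
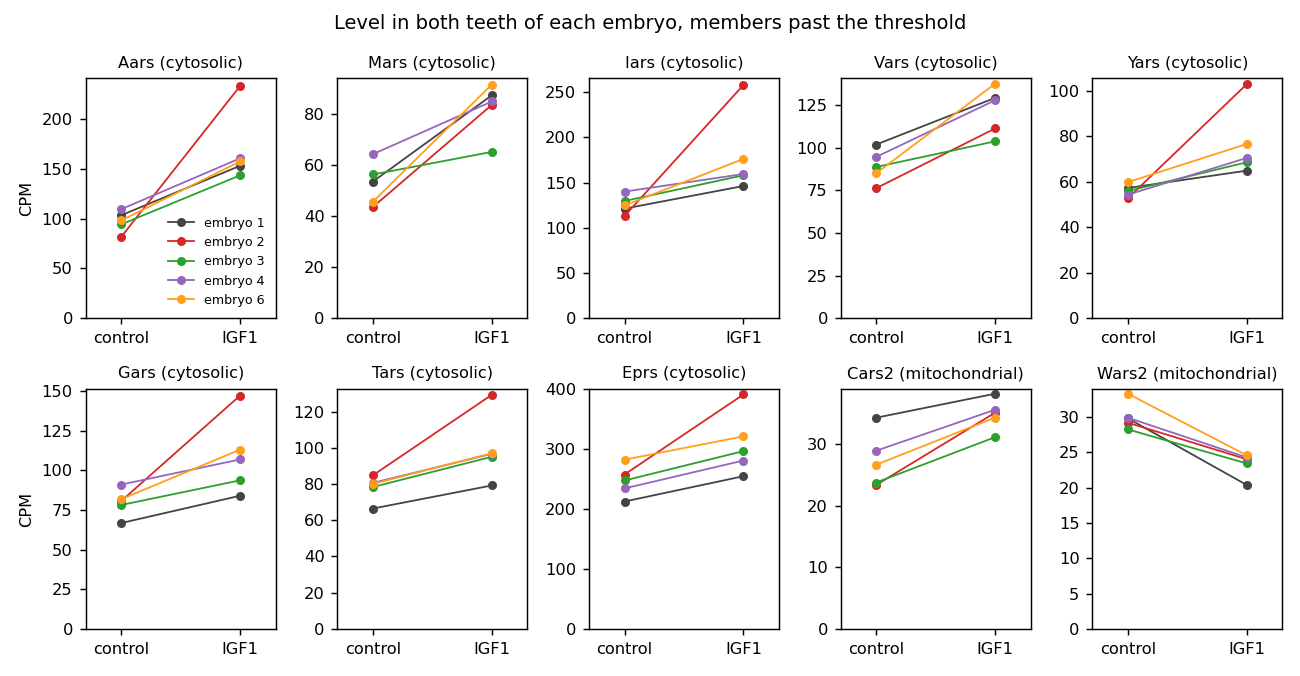
Level in CPM of the 10 synthetases with an adjusted p under 0.05, with a line joining the control and the IGF1 tooth of each embryo and the axes starting at 0. All 5 lines rise for the 8 cytosolic genes and Cars2 and fall for Wars2, and the IGF1 tooth of embryo 2 (red) is highest for Aars, Iars, Yars, Gars, Tars and Eprs.

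Among the 12 cytosolic members that did not pass, Nars, Sars and Wars were nearest. Nars, the asparaginyl enzyme, read 97.3, 89.3, 82.6, 94.9 and 92.1 CPM in control and 105, 213, 123, 110 and 111 CPM in IGF1 teeth (log2 fold change 0.50, SE 0.15, adjusted p = 0.0598). Sars, the seryl enzyme, read 71.9 to 91.8 CPM in control and 94.6 to 145 CPM in IGF1 teeth (0.39, adjusted p = 0.0674). In both genes the groups did not overlap, and the IGF1 tooth of embryo 2 lay far above the others; DESeq2 and limma-voom called both higher. Without embryo 2 the estimate was 0.30 for Nars and 0.24 for Sars. Wars, the tryptophanyl enzyme, which is also an interferon target, had its smallest differences in embryos 2 and 3 (0.12 and 0.080) and its largest in embryo 1 (0.75), with a log2 fold change of 0.35 (adjusted p = 0.0596). Wars was called higher without embryo 3 (adjusted p = 0.0413).

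For the other 9, estimates were smaller or uneven. Lars, the leucyl enzyme, was at 0.21 and higher in 5 of 5 embryos (adjusted p = 0.0939). Cars read 0.29 (adjusted p = 0.360), but embryo 2 differed by 1.20 while embryo 1 differed by -0.48, and without embryo 2 the estimate was 0.051. Farsb and Farsa, the subunits of the phenylalanyl enzyme, were at 0.20 and 0.18, Dars (aspartyl) at 0.17, Hars (histidyl) at 0.13, Rars (arginyl) at 0.10 and Kars (lysyl) at 0.019, with adjusted p from 0.147 to 0.913. Qars, the glutaminyl enzyme, was the cytosolic member with an estimate below 0. Its control teeth read 135, 122, 127, 137 and 127 CPM and its IGF1 teeth 116, 108, 113, 122 and 118 CPM, lower in 5 of 5 embryos by 0.11 to 0.22 on the log2 scale, with an estimate of -0.17 (SE 0.062, adjusted p = 0.123).

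Cars2, the mitochondrial cysteinyl enzyme (chr8:11513977-11550783), was the mitochondrial member called higher. It read 34.3, 23.3, 23.7, 28.9 and 26.6 CPM in control and 38.1, 35.1, 31.1, 35.6 and 34.3 CPM in IGF1 teeth. The groups overlapped because the control tooth of embryo 1 was high, yet each embryo rose. The log2 fold change was 0.37 (SE 0.090, adjusted p = 0.0289), and the call was lost without embryo 2, 3, 4 or 6 (adjusted p up to 0.104) and without the block (0.0950). Cars2 shares 984 bases with Naxd on the other strand, which had an estimate of -0.020. Its cytosolic counterpart Cars was not called.

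Wars2, the mitochondrial tryptophanyl enzyme (chr3:99141068-99239186), was the member called lower. Control teeth read 29.8, 29.2, 28.2, 29.9 and 33.3 CPM and IGF1 teeth 20.4, 24.0, 23.4, 24.3 and 24.6 CPM. Every IGF1 tooth lay below every control tooth, a separation in that direction that 2.9% of all genes showed. The log2 fold change was -0.36 (SE 0.089, adjusted p = 0.0309). The call was lost without embryo 1, 2, 4 or 6 (adjusted p up to 0.101) and was kept without the block (0.0398).

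Hars2, the mitochondrial histidyl enzyme, read 44.5, 49.5, 47.1, 59.9 and 39.6 CPM in control and 32.4, 38.8, 47.5, 39.2 and 39.4 CPM in IGF1 teeth. Its estimate was -0.28 (SE 0.11, adjusted p = 0.136), and its teeth were close to equal in embryos 3 and 6. Hars and Hars2 stand head to head and share 198 bases on opposite strands, so their counts could not be fully told apart there. Iars2 was lower in 5 of 5 embryos by a small amount (-0.10, adjusted p = 0.354). The remaining 12 mitochondrial members had estimates from -0.16 (Fars2) to 0.17 (Rars2). Pars2 and Sars2 were the members with the lowest medians, at 8.86 and 11.7 CPM, and had SEs of 0.15 and 0.16.

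Cytosolic and mitochondrial genes of the same amino acid were then compared within embryos, in 18 pairs. For each embryo the log2 change of the mitochondrial gene was taken from that of the cytosolic gene. The signed change of the cytosolic gene lay above that of the mitochondrial gene in all 5 embryos in 9 pairs, and below it in all 5 in 0 pairs. How often pairs of other genes do so was not analysed here. Of single genes, 12.6% were higher and 10.8% lower with IGF1 in all 5 embryos. Given here for 8 of the 9, the mean difference was 0.73 ± 0.40 for Wars/Wars2, 0.66 ± 0.32 for Aars/Aars2, 0.59 ± 0.40 for Iars/Iars2, 0.48 ± 0.34 for Sars/Sars2, 0.46 ± 0.27 for Vars/Vars2, 0.35 ± 0.26 for Farsb/Fars2, 0.34 ± 0.20 for Farsa/Fars2 and 0.31 ± 0.35 for Yars/Yars2 (SD, n = 5). Each of the 9 had a two-sided exact sign-flip permutation p of 0.0625, the smallest that 5 embryos allow, and a Benjamini-Hochberg value over the 18 pairs of 0.125, so no pair passed.

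The mean was above 0 in 16 of 18 pairs, with a median of 0.37. The exceptions were Cars/Cars2 (-0.097 ± 0.45) and Rars/Rars2 (-0.055 ± 0.19). Mars/Mars2 was at 0.71 ± 0.45, with embryo 3 at -0.0094, and Tars/Tars2 at 0.39 ± 0.30, with embryo 4 at -0.0042. Eprs was set against Ears2 (0.21 ± 0.33) and Pars2 (0.25 ± 0.30), the enzymes that divide its work in mitochondria. Lars/Lars2 had the largest mean and the largest spread, at 1.10 ± 1.13, where Lars2 differed by -2.70 in embryo 3. The limit given above for the counts of Lars2 holds for this pair as well. Eprs and Fars2 each enter 2 pairs, so the pairs are not independent.

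**Figure D4:**
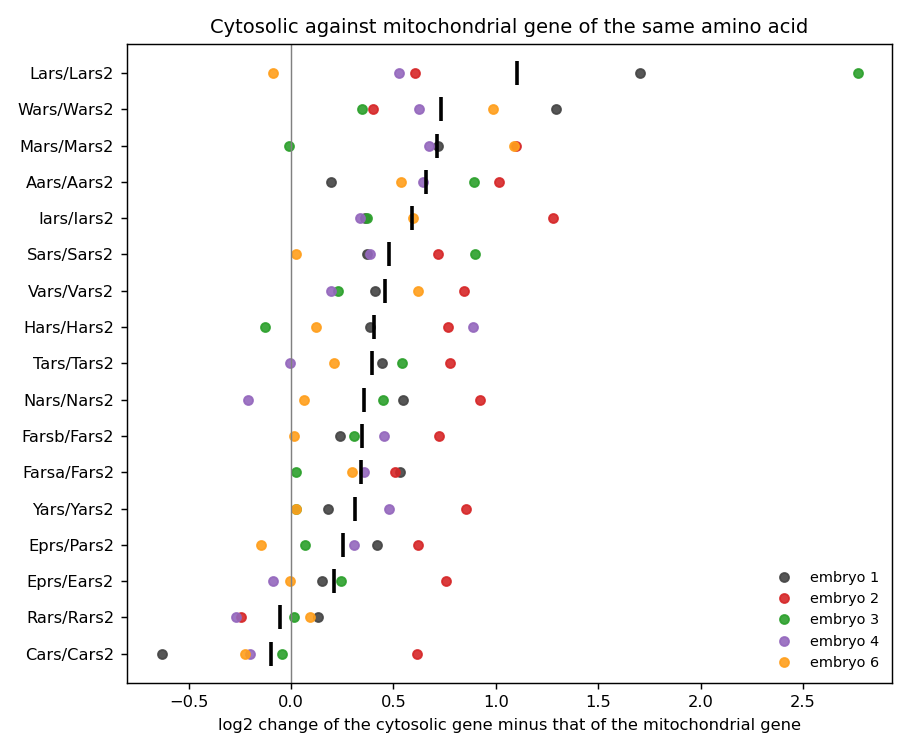
Log2 change of the cytosolic gene minus that of the mitochondrial gene for 17 pairs of the same amino acid, with a point for each embryo and a bar for the mean. In 8 pairs all 5 points lie right of 0, and the widest spread is that of Lars/Lars2 (1.10 ± 1.13).

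The cytosolic members were divided by what is known of them. The first list held reported targets of the amino acid response (Aars, Cars, Eprs, Gars, Iars, Lars, Mars, Nars, Sars, Tars, Vars, Wars and Yars). It held all 8 cytosolic members called higher, 8 of 13, beside 6.14% of all genes. Its median log2 fold change was 0.44, and 12 of 13 were higher in every embryo (12.6% of all genes). The count was 5 without embryo 2 (4.16% of all genes) or without the block (3.56%), and 4 without embryo 4 (3.55%) or 6 (3.61%). Of the other 7 (Dars, Farsa, Farsb, Hars, Kars, Qars and Rars), 0 were called by edgeR, DESeq2 or limma-voom, and the median was 0.13. With edgeR, 6.14% of all genes were called higher and 4.16% lower. At an unadjusted p under 0.05, 1 of the 7 was higher and 1 lower, near the 13.7% and 11.6% of all genes. The first list was drawn up with earlier results of these data known and is a description. Summed, it read 1109 to 1229 CPM in control and 1392 to 2043 in IGF1 teeth, which did not overlap, while the other 7 read 494 to 560 and 491 to 598, which did.

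Membership of the multisynthetase complex, an assembly of 8 cytosolic enzymes around scaffold proteins, cut across this. Of its enzymes, Mars, Iars and Eprs rose while Dars, Kars, Lars, Qars and Rars were not called, beside 6.14% of all genes called higher, and the median was 0.19. The count of 3 was 1 without embryo 1, without embryo 4 and in embryos 1, 4 and 6 alone, and 2 without embryo 2, without embryo 6 or without the block. Its scaffolds were not called: Aimp1 was at -0.013, Aimp2 at 0.28 and Eef1e1 at 0.20 (adjusted p 0.945, 0.153 and 0.344), and 1 of the 3 was higher at an unadjusted p under 0.05. By fold of the catalytic domain, class I enzymes (Cars, Iars, Lars, Mars, Qars, Rars, Vars, Wars and Yars) had 4 of 9 called higher and a median of 0.35, and class II enzymes (Aars, Dars, Farsa, Farsb, Gars, Hars, Kars, Nars, Sars and Tars) 3 of 10 and 0.27, beside the same 6.14%. With an embryo left out the counts ran down to 2 for class I (without embryo 4 or 6) and 1 for class II (without embryo 6). DESeq2 and limma-voom each called 4 of class I and 5 of class II, and without the block the counts were 4 and 1, so the order of the classes turned with the setting. Eprs holds a domain of each class and was in neither list.

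Genes known as ATF4 targets outside the synthetases were examined beside them. Atf4 itself read 90.3 ± 6.80 CPM in control and 121 ± 19.6 CPM in IGF1 teeth (log2 fold change 0.42, SE 0.099, adjusted p = 0.0260). Of the 29 genes of this list, 17 were called higher, 0 lower and 12 were not called, with a median of 0.81. Over all genes, 6.14% were called higher and 4.16% lower. Among those of the list called were Psat1 (1.02) and Phgdh (1.10) of serine synthesis. Asns (1.71), the asparagine synthetase, and Slc7a3 (1.82), a cationic amino acid transporter, were also called. Medians of the whole list by embryo were 0.57, 1.43, 0.71, 0.57 and 0.63, and embryo 2 was the largest for 23 of 29. The amino acid response synthetases gave 0.27, 0.94, 0.28, 0.26 and 0.36, also largest in embryo 2.

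Hypoxia response genes differed between the groups as well. Of 20, 18 were called higher, beside 6.14% of all genes, with a median of 1.66. Among those called were Ldha, the lactate dehydrogenase (1.54), Aldoc, a glycolytic aldolase (2.79), and Bnip3, a mitophagy receptor (2.20). By embryo the medians of the hypoxia genes were 0.63, 2.78, 2.42, 0.88 and 0.81, highest in embryos 2 and 3. Those of the 20 cytosolic synthetases were 0.22, 0.57, 0.24, 0.25 and 0.29 in the same order. In the 3 embryos 1, 4 and 6, 5 cytosolic members were called higher (Aars, Mars, Vars, Gars and Wars; 5.1% of all genes), with a median over the 20 of 0.24. The part of the hypoxia response and of ATF4 in the synthetase values was not tested.

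**Figure D5:**
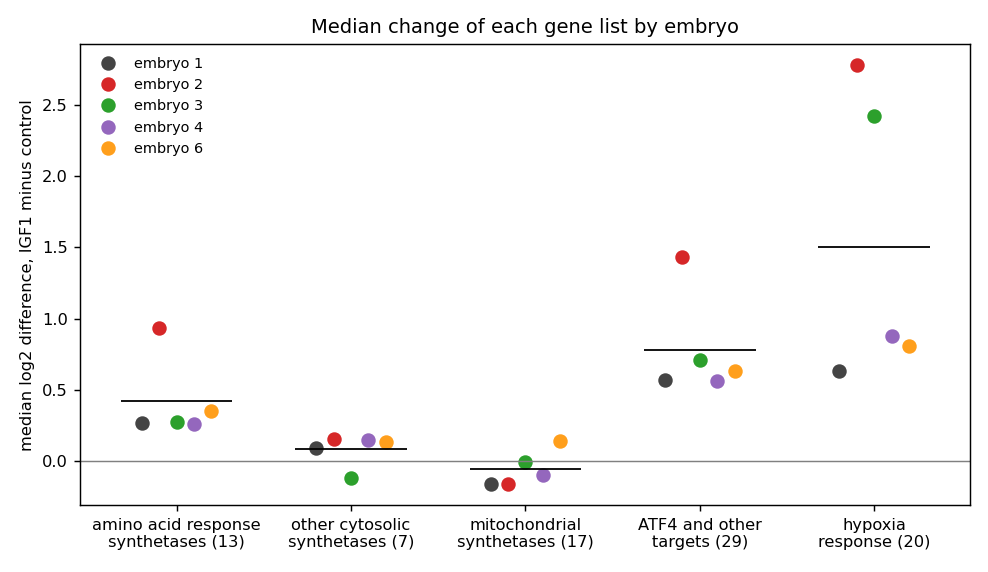
Median log2 difference between the IGF1 and the control tooth of each embryo (points) for 3 lists of synthetases, ATF4 with its other targets and hypoxia genes, with the number of genes in brackets and a bar at the mean over embryos. Embryo 2 is highest for the amino acid response synthetases (0.94) and ATF4 targets (1.43), and hypoxia genes read 2.78 in embryo 2 and 2.42 in embryo 3.

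Other genes of the translation machinery were read from the same fit. Among 26 cytosolic translation factors 6 were called higher and 0 lower, with a median of 0.18: Abce1, the ribosome recycling factor (0.40), Eif5a (0.44), Eif2s1 (0.32) and Eif2s2 (0.36) of the initiator tRNA carrier, Gspt1, a release factor (0.22), and the helicase Eif4a1 (0.23). The count of 6 was 3 without embryo 1, 2 or 6, 1 without embryo 4 and 0 without the block. Of all genes, 4.16% were called higher without embryo 2, 3.61% without embryo 6, 3.55% without embryo 4 and 3.56% without the block. DESeq2 called 5 of these factors higher and 1 lower (4.76% and 3.26% of all genes), and limma-voom 7 and 1 (6.69% and 4.68%). At an unadjusted p under 0.05, 11 were higher and 2 lower, beside 13.7% and 11.6% of all genes, so the share lower was below that of all genes. Those 2 were Pabpc1, the poly(A) binding protein (-0.29, edgeR adjusted p = 0.0516), and Eef1b2, an elongation factor subunit (-0.20). The IGF1 teeth of Eef1b2 all lay below its control teeth, as in 2.9% of all genes. Of 15 mitochondrial translation and transcription factors, Tsfm, an elongation factor, was higher (0.55) and Tfb2m, a transcription factor of the mitochondrial genome, lower (-0.34), and the median was -0.080; limma-voom called 1 in each direction and DESeq2 0, and 1 of 15 is near the shares over all genes (6.14% higher and 4.16% lower). RNA polymerase III, which makes tRNAs, had 2 of 21 genes higher, the subunits Polr3g (0.62) and Polr3k (0.44). Another 2 were lower, the repressor Maf1 (-0.42) and the subunit Polr3b (-0.37). Over all genes, 6.14% were called higher and 4.16% lower. Levels of tRNAs themselves were not analysed here.

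Of 23 tRNA export and processing genes tested, edgeR, DESeq2 and limma-voom each called 0, with 2 higher at an unadjusted p under 0.05, a smaller share than the 13.7% of all genes. These were the tRNA exporter Xpot (0.21, adjusted p = 0.0879) and Xpo5 (0.24, adjusted p = 0.0928), both higher in 5 of 5 embryos. Of 12 relatives of the synthetases, editing enzymes and genes of the mitochondrial glutaminyl and formylmethionyl routes, the same 3 tools called 0, with 2 higher and 2 lower at an unadjusted p under 0.05 (13.7% and 11.6% of all genes). Gatb, a subunit of the amidotransferase that stands in for a mitochondrial glutaminyl synthetase, was nearest at -0.41 (adjusted p = 0.0553).

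Chromosomal neighbours of the synthetases were examined next. Within 500 kb of their starts, 68 nearest protein coding genes that are not members were tested. Of these, 6 were called higher and 5 lower, beside 10.3% of all genes called in either direction. With an embryo left out, 6 to 8 neighbours were called in either direction, and all genes called numbered 878 to 1458 in place of 1584. Next to the members that rose there were 17 such neighbours, of which 0 were called higher; Pdpr beside Aars (-0.41) and Nol8 beside Iars (-0.30) were called lower. In all, 11 members overlap another gene of the table, each time on the opposite strand.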

How the data were processed

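RNA of single cultured molars was sequenced from 5 IGF1 and 5 control teeth (libraries with Ovation Mouse RNAseq System). The authors deposited expected counts per gene; their processing notes name FastQC 0.11.8, Trimmomatic 0.39, Salmon 0.99.0, DESeq2 and GRCm38, and transcript set, filters and strand use are not given in the sources used here. The table holds 18381 genes with at least 10 counts in all; 0 values were not whole, so rounding changed none. Of the identifiers, 18287 are in GENCODE M21. Synthetases with close copies or overlapping genes are estimates where reads are shared.

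Counts were tested with edgeR 4.0.16 (R 4.3.3): TMM, edgeR's expression filter with the design, quasi-likelihood test, embryo as a block and Benjamini-Hochberg adjustment over 15386 genes, called at an adjusted p-value under 0.05. Embryo was the block because both teeth of a number came from 1 embryo; the teeth of embryos 1, 2, 3, 4 and 6 deviated together from their groups with r of 0.286, 0.196, -0.0415, 0.158 and 0.251, against a median r of -0.0433 for teeth of different embryos. Each tooth of a group came from its own embryo and was a replicate; no 2 teeth of a group agreed within sampling noise (chi-square per degree of freedom 4.68 to 19.4). Differences within embryos used log2 CPM with a prior count of 2. The edgeR test was also run on simulated data.

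Alternatives were DESeq2 size factors, DESeq2 1.42.0, limma-voom (limma 3.58.1), other filters, no block, each embryo left out, a prior count of 0.5 and, added after seeing the data, the filter by group size and embryos 1, 4 and 6 alone. The members and all gene lists were chosen with earlier results of these data known. Named genes are every member, the pair of each called member, up to 4 genes of each list with the lowest adjusted p, and Atf4, Xpot and the complex scaffolds; all called genes of the translation factor list, Pabpc1, Eef1b2, Hba-a2, Ddit3, Naxd and the neighbours called were named after their values were seen. Promoters were searched where the RefSeq table had an entry and the gene is not on chromosome 18. Protein sequences were not analysed here. Values of 1 mitochondrial member enter the counts and medians but are not reported here or drawn.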

Additional observations from a re-analysis of the deposited data

Results flagged for a closer look

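Within each group of 5 teeth, the highest or the lowest tooth stood apart for 9 of 74 combinations of member and group, by a gap of more than 0.71 of the group's whole range (Dixon's 95% value for 5 samples). Chance flags about 1 in 20, or 3.7 of 74. In 5 of the 9 it was the IGF1 tooth of embryo 2 that was highest, each time in a cytosolic member. The ratio of gap to range was 0.809 for Aars (233 CPM, the other 4 teeth 144 to 161), 0.792 for Cars (101 CPM against 42.5 to 54.6), 0.732 for Iars (258 CPM against 146 to 176), 0.830 for Nars (213 CPM against 105 to 123) and 0.878 for Sars (145 CPM against 94.6 to 101).

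The other 4 lay elsewhere. Farsb was highest in the control tooth of embryo 6 (ratio 0.743, 66.3 CPM against 44.2 to 49.9), and Hars was lowest in the control tooth of embryo 2 (0.886, 36.9 CPM against 49.7 to 51.4). Fars2 was highest in the control tooth of embryo 1 (0.792, 34.9 CPM against 26.2 to 28.0), and Wars2 was lowest in the IGF1 tooth of embryo 1 (0.725, 20.4 CPM against 23.4 to 24.6).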

How the results depend on the processing

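The count of cytosolic members called higher (8 as reported) was 8 with DESeq2 size factors or no filter on low counts, 9 with the filter by group size, 10 with DESeq2's Wald test or limma-voom and 11 with at least 10 counts in every sample; it was 5 without the replicate block (where Gars, Tars, Eprs and Cars2 were lost), 5 in embryos 1, 4 and 6 alone, and 4 to 9 with an embryo left out. All genes called numbered 870 without the block and 878 to 1458 with an embryo left out, in place of 1584; the cause of these shifts was not tested. The mitochondrial call in the higher direction was 0 with DESeq2's Wald test, without the block and in embryos 1, 4 and 6, and 0 to 1 with an embryo left out; that in the lower direction was 0 with DESeq2's Wald test and in embryos 1, 4 and 6, and 0 to 1 with an embryo left out. Neighbours called were 7 without the block and 6 to 8 with an embryo left out, in place of 11. No cytosolic member was called lower under any of these settings. Of 481 recomputed log2 fold changes of members, 425 kept their direction and side of the threshold, 33 lost the call, 10 gained it and 13 changed sign, none of them called. Those were Cars in embryos 1, 4 and 6 (-0.052), Kars with an embryo left out (-0.021 to 0.075), Pars2 (-0.0020 to 0.12), Sars2 (-0.22 to 0.0044) and Tars2 (-0.14 to 0.0029) likewise, Tars2 in embryos 1, 4 and 6 (0.062), and Vars2 with limma-voom (0.0038), without the block (0.0074), in embryos 1, 4 and 6 (0.092) and with an embryo left out (-0.073 to 0.065). All 126 recomputed pair differences stayed within their spread over embryos. Embryo 1 had the fewest counts, and with 5 embryos no exact test within pairs can pass 0.05.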
